A study of Drosophila melanogaster with 3 samples.

Results

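Oxidative phosphorylation is carried out in the mitochondrial inner membrane by a chain of protein complexes whose subunits are encoded partly in the mitochondrial genome and, for the most part, in the nucleus. Complex I (NADH dehydrogenase) and complex III (the cytochrome bc1 complex) pass electrons toward cytochrome c, complex IV (cytochrome c oxidase) hands them to oxygen, and complex V (ATP synthase) uses the proton gradient built on the way to make ATP. In flies many of the nuclear genes also have duplicated copies, often named with a final L for "like", and a number of such copies are known to be transcribed mainly in the testis. The nuclear genes of these complexes were taken from Ensembl release 115 (BDGP 6.54) as the protein-coding genes on the 6 nuclear arms whose symbol begins with ND-, UQCR-, ATPsyn, or COX and a digit. The rule found 80 of 13945 protein-coding genes, of which 40 belong to complex I, 9 to complex III, 16 to complex IV and 15 to complex V. Of these, 59 carry no L suffix and 21 do, and for 17 of the 21 the parent gene is also a member. In the other 4 (COX6AL, COX6AL2, COX6CL and ATPsynepsilonL) the parent has a different kind of symbol.

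Binding was measured by chromatin immunoprecipitation and sequencing (ChIP-seq) of Deadpan (Dpn) in whole Drosophila melanogaster embryos aged 0 to 16 h, in 3 biological replicates of 1 group, with no second group to set against it. Dpn belongs to the basic helix-loop-helix proteins related to Hairy, which repress transcription, and it is best known for keeping neural stem cells from differentiating. All embryos, male and female together, came from 1 transgenic line with GFP at the C-terminal end of dpn. The precipitation used an antibody to GFP, although another label field names dpn as the antibody, and chromatin was sonicated to fragments of 200 to 800 bp. A whole embryo mixes many cell types, so a site occupied in few cells and a site weakly occupied in many cannot be told apart. The labelled tissue could not be checked against marker genes, since the files hold peaks and no expression values.

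The thresholded set held 6253 peaks on the dm6 build, drawn by the authors from the replicate lists and a pooled list. The relaxed lists, which hold background by design, had 30000 peaks for the pooled replicates, 30000 for replicate 1, 22475 for replicate 2 and 30000 for replicate 3. In each list a peak carries a signal, which is the authors' value on a scale the sources used here do not define, and which served here to rank peaks within a list (rank 1 is the strongest). A gene was called when a thresholded summit, the position of highest signal in a peak, lay within 1 kb of any of its annotated start sites. No read depth was found in the files or labels used here, and the intervals below are exact 95% binomial intervals that cover counting error only.

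Of the 80 genes, 27 had a thresholded Dpn-GFP summit within 1 kb of a start site (33.8%, interval 23.6 to 45.2), against 4369 of 13945 protein-coding genes (31.3%). The share is near the background, and the count by itself is not a result about respiratory genes. The members divided by name. Those without the L suffix were called in 26 of 59 cases (44.1%, 31.2 to 57.6). Those with the suffix were called in 1 of 21 (4.76%, 0.120 to 23.8), and the 1 was COX7AL2. No test was run on these shares, because the genes were grouped with earlier results of these data known.

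The relaxed pooled list gave the same order, but its strongest 6253 peaks are the thresholded set, so every called gene counts again. It is therefore not a separate check. Among uncalled members without the suffix, 30 had a weaker pooled summit and 3 had none. Among uncalled L-suffix members these numbers were 7 and 13, and over all genes 4070 and 5506. Any of the 30000 pooled peaks lay within 1 kb of a start in 64 of the 80 members (80%), against 60.5% of all protein-coding genes. The members without the suffix reached 56 of 59 (94.9%) and the L-suffix members 8 of 21 (38.1%). Among the 2000 strongest pooled peaks, 22.0% of the members without the suffix had a summit, against 12.9% of all genes. At 10000 peaks the shares were 67.8% of those members and 41.2% of all genes, and at 20000 peaks they were 93.2% and 54.0%. Near the top of the list the members stood close to all genes. None was within 1 kb of the first 100 pooled peaks, against 0.817% of all genes. Within the first 500 there were 2 (3.39% of the members without the suffix, against 3.83% of all genes). At 1000 peaks the shares were 8.47% and 7.27%. Most of the members without the suffix had their strongest pooled summit below the first 2000 ranks, as did most of the 8439 protein-coding genes with a pooled summit.

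**Figure D1:**
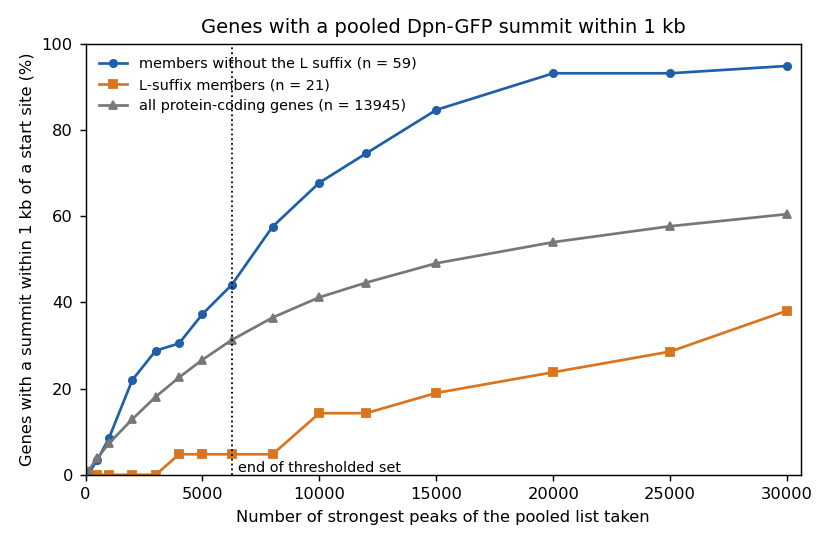
Share of genes (vertical axis, percent) with a pooled Dpn-GFP summit within 1 kb of a start site, against the number of strongest pooled peaks taken (horizontal axis), for 59 members without the L suffix, 21 L-suffix members and all 13945 protein-coding genes, with a dotted line at the 6253 thresholded peaks. The line of the members without the suffix reaches 94.9% at 30000 peaks, against 60.5% for all genes and 38.1% for the L-suffix members.

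Complex I had 13 of its 34 members without the suffix called (38.2%, 22.2 to 56.4, against 31.3% of all genes), and none of its 6 L copies. The hydrophilic core, the arm that holds the flavin and the iron-sulfur clusters, had 4 of 7 subunit genes called (57.1%, 18.4 to 90.1). The accessory subunits had 9 of 27 (33.3%, 16.5 to 54.0), and each of these intervals includes the share of all genes. By nearest start the core had 1 of 7, since the summits of ND-51, ND-23 and ND-30 lay nearer to another gene's start. The strongest summit of the whole group lay 167 bp upstream of ND-MWFE (FBgn0085468), the fly counterpart of the accessory subunit NDUFA1, with a signal of 770.4. It ranked 306 in the pooled list and 261, 298 and 349 in replicates 1, 2 and 3, so all 3 replicates held it near the top. ND-ASHI (FBgn0029888), the counterpart of NDUFB8, came next with a signal of 743.7 at 250 bp upstream. Its pooled rank was 334 and its replicate ranks were 461, 297 and 358. Its neighbour on the opposite strand is Fum1, which encodes fumarase of the citrate cycle. The same summit lay 272 bp upstream of the nearest Fum1 start and counted for Fum1. The closest pair of annotated starts of the 2 genes is 164 bp apart, but the summit does not lie between that pair.

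Among the core genes, ND-24 (counterpart of NDUFV2, an iron-sulfur subunit) had a signal of 522.9 at 77 bp downstream of its start, with replicate ranks of 810, 779 and 644. ND-51, which encodes the flavin-bearing subunit that takes electrons from NADH, had a signal of 425.7 at 121 bp upstream and ranked 1364, 1004 and 882. ND-23, another iron-sulfur subunit, had a signal of 248.3 and ranked 2435, 2540 and 2566. ND-30 passed the threshold narrowly at pooled rank 6186 and its replicate lists were uneven, with ranks of 3797, 7906 and 8374. The other 3 core genes were below the threshold: ND-75, the largest iron-sulfur subunit, at pooled rank 6403, ND-20 at 7550 and ND-49 at 7879. The remaining called accessory genes were ND-42 (signal 357.2), ND-SGDH (349.6), ND-B17 (295.1), ND-MNLL (290.4), ND-B22 (214.4), ND-B18 (156.9) and ND-15 (122.9). The uncalled accessory genes had pooled ranks between 7266 (ND-13A) and 28852 (ND-19), apart from ND-B14, which had no summit within 1 kb in any of the 4 relaxed lists.

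Complex III stood lowest, with 1 of 6 genes without the suffix called (16.7%, 0.421 to 64.1, against 31.3% of all genes). The count is too small to set it apart from the other complexes or from all genes. The 1 was UQCR-14, a small subunit, with a signal of 144.4 at 6 bp downstream of its start and a pooled rank of 5160. Its replicate ranks were 3135, 6145 and 4923, but the replicate 2 summit lay at position -879 (negative is upstream), so that list held a different summit. The core proteins UQCR-C1 and UQCR-C2 had pooled ranks of 11102 and 9626, UQCR-Q had 7883 and UQCR-11 had 14561. UQCR-6.4 had no pooled summit within 1 kb.

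Complex IV had 5 of 8 genes without the suffix called (62.5%, 24.5 to 91.5, against 31.3% of all genes, which the interval includes). COX5A had a signal of 512.1 at 73 bp upstream and ranked 723, 679 and 850 in the replicates. Its start lies 20 bp from that of glo on the opposite strand, a gene for an RNA-binding protein. COX7B followed with a signal of 353.5 at 129 bp upstream (ranks 1699, 1352 and 1644), then COX8 with 290.8 at 72 bp upstream (1904, 1496 and 2835), COX6B with 283.8 and COX5B with 237.2. COX7C and COX7A were uncalled, at pooled ranks of 8506 and 9171. COX4 had no pooled summit within 1 kb, although replicates 1 and 3 listed one at ranks 8102 and 11863.

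Complex V had 7 of 11 genes without the suffix called (63.6%, 30.8 to 89.1, against 31.3% of all genes, which the interval includes). Signals were lower than in complex IV, with a median of 174.0 over the 7 genes, against 290.8 over 5. The difference was not tested. ATPsynCF6, a subunit of the peripheral stalk, had the strongest at 498.6, but that summit lay 988 bp upstream and nearer to Sec13, the gene of a coat and nuclear pore protein. Its replicate ranks were 819, 3546 and 682, and the replicate 2 summit was a different one, at position -249. The summit closest to the ATPsynCF6 start was weaker, at 86 bp and pooled rank 4459. ATPsynE was called at 789 bp downstream with a signal of 340.8, nearer to the DNA repair gene spn-B, and it had a second summit with a signal of 337.5 at 47 bp downstream of its own start. Its replicate ranks were 1883, 1032 and 1494, and the replicate 2 summit was the one near its own start. ATPsynF had a signal of 273.9 at 38 bp upstream and ranked 1395, 4336 and 2038. ATPsynC, the ring subunit that turns in the membrane, had 174.0, the central stalk gene ATPsyngamma had 171.3, ATPsynB had 164.3 and the catalytic ATPsynbeta had 131.7. The ATPsynbeta summit lay 429 bp upstream and nearer to CG11076, at 80 bp. The pooled summit closest to the ATPsynbeta start, at 45 bp, was below the threshold at rank 9752. ATPsynO, ATPsynG, ATPsynD and ATPsyndelta were uncalled, at pooled ranks of 6729, 10004, 10155 and 15298.

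**Figure D2:**
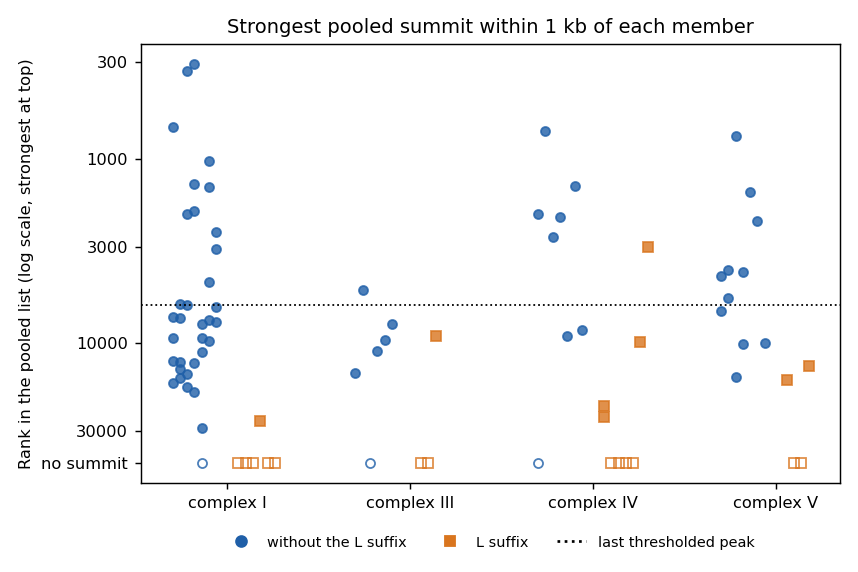
Rank of the strongest pooled summit within 1 kb of each of the 80 members (vertical axis, log scale, rank 1 would be the strongest), by complex, with circles for members without the L suffix, squares for L-suffix members, open symbols for members with no pooled summit and a dotted line at rank 6253. The 2 highest points are ND-MWFE (306) and ND-ASHI (334), and 1 square (COX7AL2, 3007) lies above the line.

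The windows below show the summits of the strongest or most distinctive members that can be printed, each 101 bases on the gene's own strand from dm6 (Release 6 of the genome), with the summit at base 51. Capitals mark any of 10 short words that were searched on both strands, so a word on the opposite strand appears as its reverse complement. ND-ASHI, ND-51, COX5A and COX7B represent strong summits of complexes I and IV, ND-MNLL carries an 8-letter word near its summit, and COX7AL2 is the called L copy.
ND-ASHI summit, chrX:6679318-6679418, minus strand: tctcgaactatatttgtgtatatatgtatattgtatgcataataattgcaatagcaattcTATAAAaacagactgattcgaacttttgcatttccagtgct
ND-51 summit, chr2L:6062828-6062928, minus strand: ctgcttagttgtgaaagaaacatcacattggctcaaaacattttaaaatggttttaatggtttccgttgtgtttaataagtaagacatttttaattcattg
COX5A summit, chr3R:11819476-11819576, plus strand: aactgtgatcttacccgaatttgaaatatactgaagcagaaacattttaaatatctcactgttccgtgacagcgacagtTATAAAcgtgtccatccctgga
COX7B summit, chr3L:17425298-17425398, plus strand: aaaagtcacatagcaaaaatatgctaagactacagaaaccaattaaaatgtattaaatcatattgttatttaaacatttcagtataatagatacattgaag
ND-MNLL summit, chrX:7893871-7893971, minus strand: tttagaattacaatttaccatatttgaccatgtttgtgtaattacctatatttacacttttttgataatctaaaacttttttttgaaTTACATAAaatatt
COX7AL2 summit, chr2L:2193549-2193649, minus strand: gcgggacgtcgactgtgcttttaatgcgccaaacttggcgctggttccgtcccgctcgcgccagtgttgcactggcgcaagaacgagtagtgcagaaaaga

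Over the 27 member summits the mean GC content was 35.4%, against 35.8% over the 3650 thresholded summits that lie within 1 kb of a start, as all member summits do, and 34.6% over all 6253. CACGTG and CACGCG, which Hairy-type proteins are known to bind, were in none of the 27 windows, which allows a share of up to 11.1% (3 counts). Among the 3650 summits near a start they stood in 1.10% and 1.53%, so that 27 windows could not show a difference. The letters TATCGATA of the Dref element, GGTCACAC of the core promoter element called motif 1, TTACGTAA and CATCNCTA (N is any base) were also in none of the 27, against 4.11%, 2.19%, 0.0274% and 3.59% of the 3650. These absences depend on the window. Within 100 bp of the summit CACGCG was in 2 of 27 (7.41%, against 3.86% of the 3650). TATCGATA was in 3 (11.1%, against 8.55%) and CATCNCTA in 4 (14.8%, against 7.62%), while CACGTG, GGTCACAC and TTACGTAA were still in none. CAGCTG was in 1 window (ND-B18), or 3.70% against 5.10% of the 3650, and TTACATAA in 1 (ND-MNLL), or 3.70% against 0.986%. GAGAG was in 4 windows (14.8%, against 9.07%), including 3 matches at the ATPsynE summit. TATAAA was in 8 (29.6%, 13.8 to 50.2, against 20.1%). A match is a description of letters, and none of the 10 words contains another, although matches can overlap in part.

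Summits sat close to the start sites. For the 27 called members the strongest thresholded summit lay at a median of 86 bp from a start (5 to 988 bp), against a median of 156 bp for the 4369 called genes. It fell within 150 bp in 18 of 27 (66.7%), against 48.6% of all called genes, and on the upstream side in 23 of 27 (85.2%), against 86.2%. Among all pooled peaks the same held for the members without the suffix, whose median distance was 92 bp over 56 genes, with 67.9% within 150 bp, against 172 bp and 45.9% over 8439 genes. L-suffix members with a pooled summit had it farther out, at a median of 530 bp over 8 genes, and none of the 8 was within 150 bp. These distances run to the nearest of all annotated starts, and 42.5% of the 80 members have more than 1, against 26.5% of all genes. With 1 start per gene the median of the called members was 129 bp over 26 genes. The matching median over all genes is not given here, and the part of start number in the shorter distances was not tested. The median signal over the 27 members was 283.8 (122.9 to 770.4), against 248.4 over all called genes (122.4 to 4420.7).

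**Figure D3:**
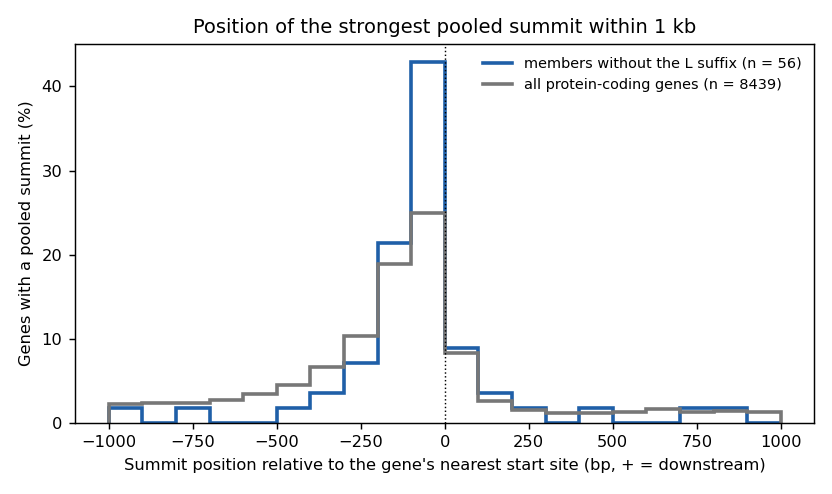
Position of the strongest pooled summit relative to the nearest start site of the gene (horizontal axis, bp, negative is upstream) as a percent of genes per 100 bp (vertical axis), for 56 members without the L suffix and 8439 protein-coding genes with a pooled summit within 1 kb. Both outlines are highest just upstream of the start, and the median distance is 92 bp for the members and 172 bp for all genes.

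Many respiratory genes have the start of another gene nearby. Another protein-coding gene had a start within 1 kb, on either strand and either side, of 42 of the 59 members without the suffix (71.2%). The same held for 6 of the 21 with it (28.6%), and for 5985 of 13945 genes (42.9%). Shares of called genes differed with this feature in the whole annotation, 48.4% with such a neighbour and 18.5% without. Set beside genes of the same kind, the members without the suffix were called in 21 of 42 cases with a neighbour (50%, 34.2 to 65.8), against 48.4% of genes, and in 5 of 17 without (29.4%, 10.3 to 56.0), against 18.5%. L-suffix members were called in 1 of 6 with a neighbour, and in 0 of 15 without one, where 3 counts in place of 0, a rough limit, would be 20%. The number of start sites gave a like picture. More than 1 start site was annotated for 54.2% of the members without the suffix and 9.52% of those with it, against 26.5% of all genes. Over all 80 members, 17 of 34 with more than 1 start were called (50%, against 49.1% of such genes), and 10 of 46 with 1 start (21.7%, against 24.9%). The intervals of the members' shares in these subsets are wide and include the share of the annotation, so that counts of this size show no difference in either direction. In the relaxed pooled list the members without the suffix stood above genes of the same arrangement, at 41 of 42 with a neighbour (97.6%, against 76.0%) and 15 of 17 without (88.2%, against 48.9%).

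**Figure D4:**
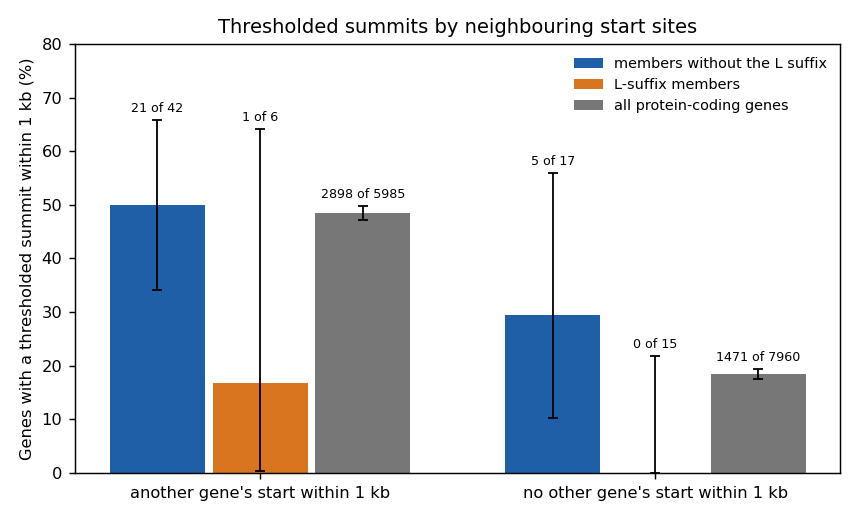
Percent of genes with a thresholded summit within 1 kb (vertical axis), for genes with and without another protein-coding start within 1 kb, in members without the L suffix, L-suffix members and all protein-coding genes, with exact 95% binomial intervals and counts above the bars. With a neighbour the members without the suffix stand at 50%, against 48.4% of all genes; without one they stand at 29.4%, against 18.5%.

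Where another gene starts nearby, a summit cannot be given to 1 gene by distance alone. The strongest summit was closest to the member's own start in 17 of 27 (63.0%, against 69.1% of called genes) and closer to another gene's start in 10. The ND-MWFE summit lay 54 bp from TppII, a peptidase gene. The ND-51 summit lay 111 bp from CG13994 and 121 bp from ND-51, and that of ND-MNLL 110 bp from p115, a Golgi tethering factor gene, and 123 bp from ND-MNLL. ND-23 was at 152 bp with spn-E, an RNA helicase gene of the germline, at 150 bp. The COX6B summit was 28 bp from a start shared by CG33932 and Rpp20, and that of COX5B 36 bp from IFT52, a gene for ciliary transport. The COX5B summit lay 262 bp from COX5B, and the pooled summit closest to the COX5B start, at 35 bp, was below the threshold at rank 8122. ND-MNLL and COX6B each share a start position on the same strand with a second annotated gene (CG45089 and CG18809). When each summit was given to the nearest start within 1 kb, 19 of 80 members kept a call (23.8%), against 22.9% of all protein-coding genes, and 18 of 59 without the suffix (30.5%). Some neighbours are mitochondrial genes themselves: Cchl, the enzyme that attaches heme to cytochrome c, starts 229 bp from ND-42, and kdn (citrate synthase) starts 228 bp from ND-B16.6.

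Replicates held nearly the same numbers of members. Within the first 6253 peaks of each list, 27 members had a summit within 1 kb in replicate 1 (against 31.2% of all genes), 26 in replicate 2 (against 29.1%) and 28 in replicate 3 (against 31.7%). These are 33.8%, 32.5% and 35.0% of the 80. A summit was present in all 3 lists for 22 members, in 2 for 2, in 1 for 11 and in none for 45. All 22 were among the 27 called members. Over all genes 3247 had a summit in all 3 lists, and 3228 of these were among the 4369 called genes. The 5 called members that missed at least 1 replicate were ATPsynB, ATPsynbeta, ND-B18, ND-30 and ND-15. ATPsynB ranked 8966, 5302 and 3840 in replicates 1, 2 and 3, and ND-15, the weakest called member, ranked 8549, 8150 and 5449. The pooled summit of ND-15 lay at position 86 from an inner start site, far from the outermost 1. The gene spans bases 114726 to 156030 of 2L on the plus strand, and the summit is at 155421. With the outermost start alone ND-15 is not called. The summits of replicates 1 and 3 lay at 817 and 751, so these lists held a different summit. Ranks of members correlated between replicates with Spearman's rho of 0.81 (replicates 1 and 2, 45 members), 0.85 (1 and 3, 61 members) and 0.83 (2 and 3, 47 members), a description over genes that share the same 3 libraries.

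**Figure D5:**
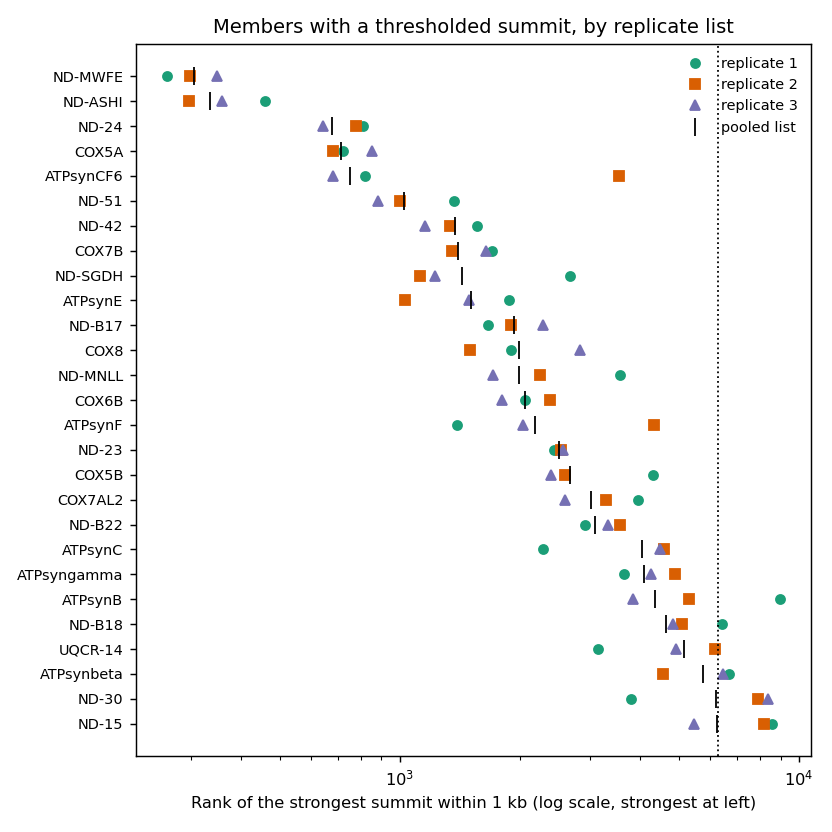
Rank of the strongest summit within 1 kb (horizontal axis, log scale, strongest at left) of the 27 called members in the lists of replicates 1, 2 and 3 (circles, squares and triangles) and in the pooled list (vertical ticks), with a dotted line at rank 6253. The ranks of ND-MWFE lie between 261 and 349, and 5 members have at least 1 replicate to the right of the line.

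The threshold ran through the group with no gap. Just inside lay ND-30 at pooled rank 6186 (signal 123.5) and ND-15 at 6230 (122.9). Just outside were ND-75 at 6403 (119.8) and ATPsynO at 6729 (114.6), and COX7C and COX7A, UQCR-Q, ND-13A, ATPsynG and the copy UQCR-6.4L were the next in their complexes. ND-75, whose strongest pooled summit lay at position -758, ranked 6256, 6802 and 7385 in the replicates, so all 3 lists placed it at the edge. In all, 37 of 80 members had their strongest pooled summit below the threshold, against 4070 of 13945 genes. No pooled summit was found for 16 members, against 5506 genes. Absent from all 4 relaxed lists were 9 members: ND-B14 and 8 L-suffix members. The matching count over all genes is not given here.

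L copies and their parents could be compared within 17 pairs. Copies were called in 1 of 17 (5.88%, 0.149 to 28.7), and their 15 parents in 6 (40%, 16.3 to 67.7), against 31.3% of all genes. The parent had the better pooled rank in 14 pairs and the copy in 3. Both copies of ND-51 were far below it, with ND-51L1 at rank 26472 and ND-51L2 without a summit, against 1025 for ND-51. ND-24L had no summit in any list, against rank 675 for ND-24. ATPsynCF6L was at rank 15867, against 752 for ATPsynCF6, and COX5BL had no pooled summit, against 2664 for COX5B. The 3 exceptions were COX7AL2 (3007, against 9171 for COX7A), UQCR-6.4L (9236) and COX4L (25209), the last 2 against parents with no pooled summit. COX7AL2 held its summit in every replicate, at ranks 3956, 3287 and 2601, located 589 bp upstream of 1 of its 3 start sites. The 4 copies without a member parent were all uncalled, and the exact interval for 0 of 4 runs up to 60.2%. L-suffix members also have fewer neighbouring starts and fewer start sites, as counted above, and the part of these features in the copies' low share was not tested.

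Promoter letters were counted over windows of 300 bases from 250 before to 50 after the outermost start, and no difference between the named groups was tested. The intervals of the members without the suffix and with it overlapped for each of the words given here. GGTCACAC stood in 14 of 59 promoters of members without the suffix (23.7%, 13.6 to 36.6) and in 1 of 21 with it (COX7AL), against 7.70% of all protein-coding promoters. TATCGATA stood in 9 of 59 (15.3%) and 0 of 21, against 9.36%. TATAAA stood in 62.7% and 28.6%, against 45.8%, CAGCTG in 30.5% and 4.76%, against 17.7%, and CATCNCTA in 11.9% and 0 of 21, against 6.42%. GAGAG ran the other way, at 16.9% without the suffix and 33.3% with it, against 29.7%. CACGTG was in 2 promoters without the suffix and 2 with it, CACGCG in 4 and 0. GC content averaged 34.8% without the suffix and 36.2% with it, against 39.1% over all promoters, and the shares of words were not adjusted for it. Of the 27 called members 6 carried GGTCACAC (22.2%), against 15 of all 80 members (18.8%). For ND-15 the window lies at the outermost start, far from its called summit.

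The following stretches run from 120 bases before to 30 bases after the outermost start on the gene's strand, from dm6, with the words in capitals. COX7B and ND-B17 are called and carry GGTCACAC, COX4 carries both GGTCACAC and TATCGATA and has no pooled summit, and the pairs ND-B14.5A with its copy and ND-20 with its copy set the 2 kinds of promoter side by side.
COX7B promoter, chr3L:17425357-17425506, plus strand: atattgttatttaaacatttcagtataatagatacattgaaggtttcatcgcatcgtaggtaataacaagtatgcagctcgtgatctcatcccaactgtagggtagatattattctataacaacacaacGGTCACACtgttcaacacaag
ND-B17 promoter, chr2L:15751049-15751198, minus strand: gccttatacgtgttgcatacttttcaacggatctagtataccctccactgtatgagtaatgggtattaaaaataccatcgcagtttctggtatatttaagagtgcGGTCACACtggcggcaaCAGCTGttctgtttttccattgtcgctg
COX4 promoter, chr2L:19958593-19958742, plus strand: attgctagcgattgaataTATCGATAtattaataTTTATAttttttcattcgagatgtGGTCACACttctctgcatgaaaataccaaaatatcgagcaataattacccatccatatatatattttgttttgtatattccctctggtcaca
ND-B14.5AL promoter, chr3L:22606249-22606398, plus strand: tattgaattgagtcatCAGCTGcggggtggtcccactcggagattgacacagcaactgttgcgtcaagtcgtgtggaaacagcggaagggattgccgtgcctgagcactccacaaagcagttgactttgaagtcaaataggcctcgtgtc
ND-B14.5A promoter, chrX:2172406-2172555, plus strand: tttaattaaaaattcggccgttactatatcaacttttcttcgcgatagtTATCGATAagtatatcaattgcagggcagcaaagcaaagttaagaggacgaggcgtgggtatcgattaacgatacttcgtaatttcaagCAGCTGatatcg
ND-20L promoter, chr3R:29515597-29515746, plus strand: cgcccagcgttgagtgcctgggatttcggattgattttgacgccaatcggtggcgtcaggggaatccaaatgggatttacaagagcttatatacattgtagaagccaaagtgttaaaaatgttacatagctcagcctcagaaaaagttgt
ND-20 promoter, chrX:15986779-15986928, minus strand: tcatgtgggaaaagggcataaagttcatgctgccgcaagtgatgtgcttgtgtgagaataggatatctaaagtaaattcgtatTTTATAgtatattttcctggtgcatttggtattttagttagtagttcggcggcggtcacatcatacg

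In COX7B the word begins 9 bases after the start and in ND-B17 it begins 15 bases before it, while both summits lie 129 bp upstream, so the word and the summit are apart in both genes. ND-B14.5A carries TATCGATA beginning 71 bases before its start, had a weak pooled summit at rank 9772 and was not called. Its copy ND-B14.5AL lacks TATCGATA in the stretch shown and was listed in replicate 2 alone, at rank 10780. ND-20 had a pooled summit at rank 7550, and ND-20L had none in any list.

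Genes of the same pathway outside the symbol rule gave counts of similar size. Subunits of the complexes under other symbols were called in 4 of 7: blw (ATP synthase alpha, signal 467.2), levy (a complex IV subunit, 379.5), cype (complex IV, 216.4) and ox (complex III, 180.0), but not sun, RFeSP or Cyt-c1. Complex II, succinate dehydrogenase, had 3 of 7 called, SdhA with 223.8, SdhD with 199.8 and SdhC with 176.1, and of its copies SdhAL and SdhCL had no summit in any list, while SdhBL had one at pooled rank 10715 and at ranks 7813 and 12353 in replicates 1 and 3. Cytochrome c and the carriers of ADP, ATP and phosphate had 3 of 6 called. The neighbouring genes Cyt-c-d and Cyt-c-p had signals of 979.6 and 474.1, the first above that of every member, and Mpcp2 had 170.7. The citrate cycle had 7 of 12 called, led by Idh3g, a subunit of isocitrate dehydrogenase, with 895.5, Fum1 with 743.7 and mAcon1 (aconitase) with 381.9. Assembly factors had 5 of 12 called, led by the copper chaperone gene Cox17 (394.7), Ttc19 (315.4) and Coa8 (253.4). This list includes ND-ACP, the acyl carrier protein, which is also a member and was not called. Regulators of mitochondrial biogenesis and of its DNA had 4 of 11 called: mtSSB, the single-strand DNA-binding protein (667.3), the nuclear receptor gene ERR (491.3), the polymerase subunit gene PolG2 (278.0) and ewg, the fly relative of nuclear respiratory factor (126.7). All stand beside the background of 31.3%, and lists of 6 to 12 genes have intervals that span most of the scale.

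Among other housekeeping groups scored the same way, cytoplasmic ribosomal protein genes were called in 68 of 93 (73.1%), mitochondrial ribosomal protein genes in 43 of 73 (58.9%) and proteasome subunit genes in 15 of 48 (31.2%). The differences between these groups and the respiratory genes were not tested. By arm, members were called in 6 of 12 on X, against 31.7% of genes there, 7 of 16 on 3R (33.1%), 6 of 16 on 2L (30.3%), 5 of 19 on 3L (31.7%), 2 of 15 on 2R (29.9%) and 1 of 2 on chromosome 4 (17.5%). The arms differ in L-suffix members. None is on X, while ND-51L1, ND-51L2, UQCR-11L, COX4L, COX6AL and COX7CL are on 2R. Counts per arm are small, and differences between arms were not tested.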

How the data were processed

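The files were narrowPeak lists of Dpn-GFP ChIP-seq on dm6, deposited by the authors for 3 replicates, the pooled replicates and a thresholded set. Per the deposited text listings, a control file entered each call and the relaxed lists were made as input for an irreproducible discovery rate step. Which aligner, caller and limit were used, and how deep the libraries were, is not given in the sources used here. The deposited signal of each peak is the authors' score without a stated scale and was used to rank peaks within a list. All 6253 thresholded peaks were the first 6253 of the pooled list by signal. The lists on dm3 were not used here.

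Summits were set against start sites of all transcripts of 13945 protein-coding genes on 6 arms (Ensembl release 115, BDGP 6.54), with python 3.11.15, numpy 2.4.6 and scipy 1.17.1. On simulated summits, planted inside and outside 1 kb of a start, the 1 kb rule matched a direct search in 200 of 200 cases. The nearest start matched in 200 of 200. Sequences came from Release 6 of the genome, which is dm6. The 3 replicates are biological per the labels, and no group comparison and no test was possible or run. Members, gene lists and the split by L suffix were chosen with earlier results of these data known. Of 69 listed pathway symbols 62 matched a gene (Coa3 as Ccdc56); SdhDL, Dlst, Coa6, ecsit, foxred1, Ndufaf3 and NDUFAF7 did not. Genes were named by role in the ranking: the 3 strongest per complex, parents and called copies, called members missing a replicate, the 2 nearest below the threshold per complex, called members nearer another start, members absent from all lists and the 3 strongest of each other list. Further members were named to account for each complex, after their values were seen. Alternatives covered the distance, nearest start, threshold, peak overlap, start sites, replicates, symbol rule and word window.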

Additional observations from a re-analysis of the deposited data

How the results depend on the processing

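Peak lists without depth or control signal limit these counts, and small lists move by a gene or 2. The count of 27 members stayed within 1.5 times under 9 of the 10 other rules that could be applied to it, at 26 within 500 bp, 36 within 2 kb, 19 by nearest start, 19 in the stronger 3126 thresholded peaks, 22 with a peak over the start, 26 with 1 start per gene, and 22 to 24 with a replicate left out. The relaxed pooled list gave 64. With other changes of the symbol rule the count was 31 of 87 (other symbols added), 26 of 63 (without copies) and 29 of 83 (any letter case). Members without the suffix stood at 44.1% within 500 bp (all genes 27.7%), 54.2% within 2 kb (36.9%), 30.5% by nearest start (22.9%), 30.5% in the stronger peaks (18.8%), 37.3% with a peak over the start (18.2%) and 35.6% to 39.0% with a replicate left out (24.3% to 26.7%).

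The complexes are counted here with their L-suffix members. Under the relaxed list the counts were 34 of 40 for complex I, 6 of 9 for complex III, 11 of 16 for complex IV and 13 of 15 for complex V. Parents had 13 of 15, copies 7 of 17, the complex I core 7 of 7 and other symbols 7 of 7. Complex II had 5 of 7, cytochrome c and carriers 6 of 6, assembly factors 10 of 12 and regulators 8 of 11. All genes had 8439 of 13945 (60.5%). By nearest start complex I had 8, its core 1, parents 3, other symbols 2 and complex II 1, beside 22.9% of all genes. In the stronger peaks complex III had 0, complex V 3, complex II 1, assembly factors 3 and all genes 2621 (18.8%). With a peak over the start complex IV had 3, copies 0, complex II 1, the citrate cycle 4, assembly factors 3 and all genes 2541 (18.2%). Copies had 0 within 500 bp (all genes 27.7%) and 4 within 2 kb (all genes 36.9%), where complex III also had 4. Assembly factors fell to 3 without replicate 1 or 3, in a range of 3 to 5, beside 26.1% and 24.3% of all genes.

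The median distance of 86 bp was 123 bp in the stronger peaks, 109 bp in the relaxed list, 129 bp with 1 start per gene and 91 to 120 bp with a replicate left out, against an SD of 17.0 bp over the 3 replicate medians. Whole replicate lists gave 63, 51 and 67 members (78.8%, 63.8% and 83.8%), against 62.2%, 51.4% and 61.8% of all genes. In the promoters of called members in place of the summit windows, TATCGATA stood in 14.8%, GGTCACAC in 22.2%, CAGCTG in 22.2%, CATCNCTA in 18.5% and TATAAA in 59.3%. Within 100 bp of the summit CATCNCTA stood in 14.8%, and in the stronger peaks CAGCTG in 0%. The cause of these moves was not tested, except that the relaxed list has more peaks, the stronger peaks are fewer and the promoter window is longer. No paired analysis was possible because there was 1 group.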
